A study of Mus musculus with 12 samples.

Results

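The 10 genes described here (Msln, Upk3b, Upk1b, Lrrn4, Krt19, Krt8, Krt18, Wt1, Gpm6a and Bnc1) are markers of the mesothelium. They were picked by name, with no measured value in the rule, but with earlier results of these data known. They are 10 of the 24541 genes left after the reads of all transcripts with one gene symbol were summed, and all 10 were among the 15068 genes tested. The mesothelium is the single flat layer of cells that lines the body cavities and covers visceral organs, epididymal fat included. Its cells share simple-epithelial keratins and surface glycoproteins with epithelia, yet they arise from mesoderm and carry transcription factors such as Wt1. In the mouse, a share of visceral adipocytes has been traced to cells that once expressed Wt1, a gene also active in some progenitor cells of visceral fat.

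The genes are spread over 8 chromosomes, with Wt1 and Lrrn4 on 2, Upk3b on 5, Bnc1 on 7, Gpm6a on 8, Krt19 on 11, Krt8 and Krt18 on 15, Upk1b on 16 and Msln on 17 (mm10). Their total over all 12 libraries ran from 779 estimated reads for Bnc1 to 19521 for Upk3b.

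The RNA came from epididymal primary adipocytes of C57BL/6N mice, in 12 libraries of 3 per group. Old AKO and old WT mice were 18 months old, and young AKO and young WT mice were 3 months old. AKO stands for an adipocyte-specific knockout of Crtc2, a coactivator of the cAMP-responsive factor CREB, and the WT animals are labelled Crtc2 f/f. The promoter that drives Cre in the AKO mice is not given in the sources used here, and it is not labelled which libraries come from separate mice, so p-values measure the spread between these libraries, which may in part be technical.

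The libraries held between 45935795 and 61125366 estimated reads. Crtc2 went against the knockout label. Old AKO-labelled libraries had 151, 161 and 154 CPM (reads scaled to a common library size by TMM), against 45.3, 51.6 and 50.0 CPM in old WT, and young AKO-labelled libraries had 164, 300 and 280 CPM, against 53.9, 67.2 and 79.4 CPM in young WT. The log2 fold change was 1.66 ± 0.21 (SE, adjusted p = 0.0125, edgeR quasi-likelihood test) at 18 months and 1.89 ± 0.21 (adjusted p = 0.00730) at 3 months. The deposited table gives reads per transcript and not per exon, so a lost exon would not show in it, and AKO below means the libraries labelled AKO. Old WT replicate 3 and young WT replicate 1 stood apart from their groups on the leading principal components. Old AKO replicate 1 stood apart in spermatid transcripts, with 71.6 CPM summed over Tnp1, Tnp2, Prm1 and Prm2, against at most 2.61 CPM in the other 11 libraries. Summed adipocyte markers ran at 34029 to 73705 CPM across the 12 libraries, so the labelled cell type was strongly present, and the 10 mesothelial genes together reached 9.07 to 173 CPM.

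Promoter sequences from RefSeq (GRCm38.p6, the same build as mm10) matched 6 of the 10 genes, with 7 start sites in all. The sequences below are shown for the most abundant member, a second surface protein, the alternative starts of Gpm6a and the neighbouring keratin pair, because the read counts further down bear on them. Each runs 5′ to 3′ on the strand of the gene, from 250 bases before the start to 50 after it. Upk3b is the plus-strand window chr5:136038246-136038545, Lrrn4 the minus-strand window chr2:132880813-132881112, and the Gpm6a starts are the plus-strand windows chr8:54779184-54779483 and chr8:54954478-54954777. Krt8 is the minus-strand window chr15:102004293-102004592 and Krt18 the plus-strand window chr15:102027966-102028265. Capitals mark matches, on either strand, to the TEAD motif CATTCC, the CRE half-site TGACG, the TATA box TATAAA or the GC box GGGCGG.
Upk3b: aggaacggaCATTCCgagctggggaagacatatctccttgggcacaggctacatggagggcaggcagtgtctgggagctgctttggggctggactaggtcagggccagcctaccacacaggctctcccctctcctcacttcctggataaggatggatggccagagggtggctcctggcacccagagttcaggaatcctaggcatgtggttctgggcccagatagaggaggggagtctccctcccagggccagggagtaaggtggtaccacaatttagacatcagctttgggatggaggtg
Lrrn4: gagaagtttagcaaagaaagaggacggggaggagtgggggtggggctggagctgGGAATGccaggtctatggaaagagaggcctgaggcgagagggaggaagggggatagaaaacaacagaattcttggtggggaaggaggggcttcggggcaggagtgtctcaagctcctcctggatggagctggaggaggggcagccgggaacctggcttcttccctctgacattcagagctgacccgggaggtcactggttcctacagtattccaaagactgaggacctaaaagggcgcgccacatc
Gpm6a, upstream start: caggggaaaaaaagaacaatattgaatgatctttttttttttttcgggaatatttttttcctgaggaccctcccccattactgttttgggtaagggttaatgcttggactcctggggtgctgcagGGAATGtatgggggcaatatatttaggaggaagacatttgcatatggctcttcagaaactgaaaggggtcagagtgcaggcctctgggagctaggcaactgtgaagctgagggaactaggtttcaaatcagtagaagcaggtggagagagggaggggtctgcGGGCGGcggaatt
Gpm6a, downstream start: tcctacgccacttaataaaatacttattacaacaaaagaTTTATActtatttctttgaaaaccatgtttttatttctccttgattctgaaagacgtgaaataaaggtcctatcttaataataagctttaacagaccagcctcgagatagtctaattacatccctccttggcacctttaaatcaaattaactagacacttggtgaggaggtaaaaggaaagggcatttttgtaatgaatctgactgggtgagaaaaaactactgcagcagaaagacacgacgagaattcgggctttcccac
Krt8: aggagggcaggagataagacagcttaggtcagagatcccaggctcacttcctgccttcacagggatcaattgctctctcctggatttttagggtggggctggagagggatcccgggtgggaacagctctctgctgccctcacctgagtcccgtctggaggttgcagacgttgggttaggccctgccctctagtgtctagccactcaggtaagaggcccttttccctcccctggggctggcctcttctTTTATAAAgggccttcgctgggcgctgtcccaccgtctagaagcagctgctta
Krt18: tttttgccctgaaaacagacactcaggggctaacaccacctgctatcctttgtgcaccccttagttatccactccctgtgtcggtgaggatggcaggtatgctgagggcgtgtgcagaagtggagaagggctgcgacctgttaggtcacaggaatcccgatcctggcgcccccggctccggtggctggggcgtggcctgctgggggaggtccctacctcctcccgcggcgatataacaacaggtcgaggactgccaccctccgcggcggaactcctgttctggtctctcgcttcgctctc

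The TEAD letters stood in the windows of Upk3b, Lrrn4 and the upstream start of Gpm6a, and 14.7% of the 32851 promoters in the RefSeq table hold them. The half-site bound by CREB had no match in any of the 7 windows, against 20.8% of all promoters. TATA box letters were found in the window of the downstream start of Gpm6a and in Krt8, where matches on both strands overlap, and 13.6% of promoters have one. Counted from the annotated start, the Krt8 matches begin at -1 and -3 bases and the Gpm6a match at -211 bases. The GC box stood at the upstream start of Gpm6a and in Bnc1, whose window is not printed, against a share of 35.7% of promoters. These matches describe letters in a window and do not show a bound factor.

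Among the surface proteins, Upk3b, a uroplakin made by mesothelium, was the most abundant of the 10 genes. Levels between genes are compared as deposited FPKM, which is corrected for transcript length. Upk3b averaged 18.0 ± 6.84 FPKM in old AKO and 29.7 ± 8.76 FPKM in old WT, and 3.07 ± 1.70 FPKM in young AKO and 7.25 ± 5.65 FPKM in young WT (SD, n = 3 each). It ranked first of the 10 in every one of the 12 libraries. Msln, the GPI-anchored mesothelin that binds the mucin CA125, had the second-highest mean in each group, with 5.25 ± 2.38 FPKM in old AKO, 10.2 ± 3.57 FPKM in old WT, 1.16 ± 0.821 FPKM in young AKO and 3.44 ± 3.26 FPKM in young WT. The gap between Upk3b and Msln was free of overlap in old AKO and in old WT, while in young AKO and in young WT their libraries overlapped.

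Krt19, Upk1b, Lrrn4, Gpm6a, Krt8, Krt18 and Wt1 filled the middle ranks, and no neighbours among them in the order of means were free of overlap in any group. Bnc1, a zinc-finger protein first known from skin and germ cells, had the lowest mean in all 4 groups. It averaged 0.333 ± 0.139 FPKM in old AKO, 0.440 ± 0.0921 FPKM in old WT, 0.0729 ± 0.0366 FPKM in young AKO and 0.150 ± 0.119 FPKM in young WT. In old AKO and in old WT it lay below its neighbour Wt1 without overlap. Wt1 ranked second of the 10 in young AKO replicate 2, the library where the other members were lowest.

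**Figure D1:**
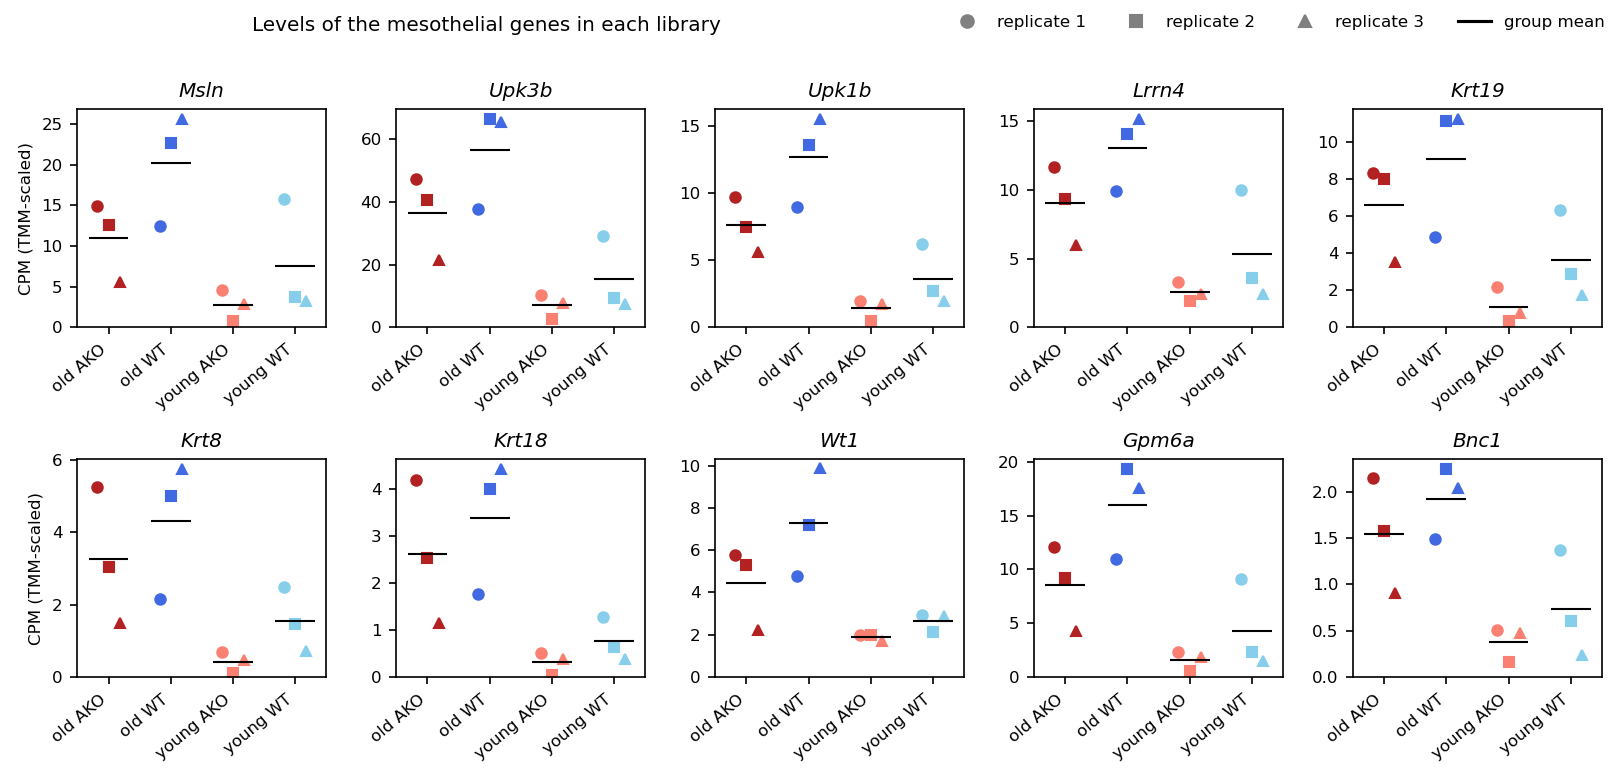
CPM (TMM-scaled, linear axes from 0) of each of the 10 mesothelial genes in old AKO, old WT, young AKO and young WT. Symbols are the 3 libraries of a group and bars are group means, and in every panel the young AKO libraries lie below the old AKO libraries.

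Age was the contrast in which the most members passed the test. The 4 comparisons share libraries with each other, so their values are given side by side and are not independent. Between old AKO and young AKO, 9 of the 10 genes rose at an adjusted p under 0.05 (edgeR quasi-likelihood test, Benjamini-Hochberg over all 15068 genes), against 10.4% of all genes tested that rose. All 10 genes had every old AKO library above every young AKO library, an arrangement that 23.9% of all tested genes showed. Their median log2 fold change was 2.42, with a median of -0.01 over all genes. In bulk samples such as these, more mesothelial cells and more RNA per mesothelial cell cannot be told apart. Nor can a smaller share of RNA from adipocytes, or expression of these genes in other cells. Summed adipocyte markers averaged 55733 ± 1525 CPM in old AKO and 64759 ± 12233 CPM in young AKO, with overlap (SD, n = 3 each). They averaged 39538 ± 5170 CPM in old WT and 63518 ± 4054 CPM in young WT, and their part was not tested.

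The keratins had the largest changes in AKO. Krt8, the type II partner of the simple-epithelial keratin filament, had 5.25, 3.03 and 1.5 CPM in old AKO, against 0.677, 0.120 and 0.478 CPM in young AKO. Every old AKO library was above every young AKO library, and the log2 fold change was 2.94 ± 0.70 (adjusted p = 0.0196). Krt18, its type I partner, had 4.19, 2.53 and 1.16 CPM in old AKO and 0.508, 0.0400 and 0.386 CPM in young AKO, and it rose by 3.07 ± 0.76 on the log2 scale (adjusted p = 0.0224). The lowest of these values, in young AKO replicate 2, rests on 2 reads. Krt19, another type I keratin, reached 8.32, 7.97 and 3.53 CPM in old AKO, against 2.18, 0.320 and 0.772 CPM in young AKO, a log2 fold change of 2.60 ± 0.69 (adjusted p = 0.0281).

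Of the 5 surface proteins, 4 rose in AKO. Upk3b had 47.2, 40.6 and 21.4 CPM in old AKO and 10.3, 2.74 and 7.79 CPM in young AKO, and the 2 groups did not overlap (log2 fold change 2.39 ± 0.59, adjusted p = 0.0223). Upk1b, the tetraspanin of the uroplakin family, had 9.73, 7.45 and 5.64 CPM in old AKO, against 1.99, 0.460 and 1.75 CPM in young AKO. With 2.44 ± 0.54 on the log2 scale it had the smallest adjusted p of the members (0.0152). Gpm6a, a membrane glycoprotein of neurons that mesothelium also makes, changed by 2.44 ± 0.70 (adjusted p = 0.0358), and Lrrn4, a leucine-rich repeat membrane protein, by 1.83 ± 0.47 (adjusted p = 0.0258). Msln did not pass, with 14.9, 12.6 and 5.52 CPM in old AKO and 4.59, 0.760 and 2.83 CPM in young AKO (log2 fold change 2.02 ± 0.73, adjusted p = 0.0762).

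Of the transcription factors, Bnc1 rose by 2.01 ± 0.61 on the log2 scale between old AKO and young AKO (adjusted p = 0.0434). Wt1 had 5.79, 5.31 and 2.24 CPM in old AKO, against 1.99, 2.0 and 1.71 CPM in young AKO. It rose the least of the 10, by 1.23 ± 0.36 (adjusted p = 0.0369), although its groups did not overlap either. The number of members called depended on single libraries. It was 0 without old AKO replicate 1, the library with the spermatid transcripts, whose part in the result was not tested. It was 1 without young AKO replicate 3, 2 without old AKO replicate 2 and 4 without young AKO replicate 2, while the median log2 fold change stayed between 2.02 and 2.78 over the 12 fits that each left out 1 library.

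Between old WT and young WT, 3 of the 10 genes rose, against 14.2% of all genes tested. Wt1, the zinc-finger factor needed to form the mesothelium in the mouse embryo, had 4.78, 7.18 and 9.89 CPM in old WT, against 2.93, 2.15 and 2.89 CPM in young WT. All old WT libraries were above all young WT libraries, with a log2 fold change of 1.45 ± 0.35 (adjusted p = 0.0166). Upk1b had 8.94, 13.6 and 15.5 CPM in old WT and 6.21, 2.71 and 1.94 CPM in young WT, and it rose by 1.81 ± 0.52 (adjusted p = 0.0304). Upk3b had 37.9, 66.4 and 65.7 CPM in old WT, against 29.1, 9.47 and 7.32 CPM in young WT, and it rose by 1.89 ± 0.58 (adjusted p = 0.0384).

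The other 7 genes all had positive log2 fold changes between old WT and young WT and missed the threshold. Krt18 came closest, with 1.77, 4.0 and 4.42 CPM in old WT and 1.27, 0.640 and 0.373 CPM in young WT (2.16 ± 0.71, adjusted p = 0.0502). Gpm6a had 11.0, 19.3 and 17.6 CPM in old WT, against 9.06, 2.35 and 1.47 CPM in young WT, with a log2 fold change of 1.90 ± 0.67 (adjusted p = 0.0638). Msln overlapped between the groups, since old WT replicate 1, at 12.5 CPM, was below young WT replicate 1, at 15.8 CPM. Lrrn4, Krt19 and Krt8 overlapped in the same way, and 6 of the 10 genes were free of overlap, against 23.0% of all genes tested. The median log2 fold change of the 10 was 1.46, with 0.03 over all genes.

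How many genes were called in this contrast turned on single libraries. Without young WT replicate 1 the count was 8 and the median log2 fold change 2.31, and without old WT replicate 3 it was 0, with a median of 1.27. It was also 0 without young WT replicate 2 or young WT replicate 3, and 1 without old WT replicate 2. With both young WT replicate 1 and old WT replicate 3 left out, 6 genes were called.

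**Figure D2:**
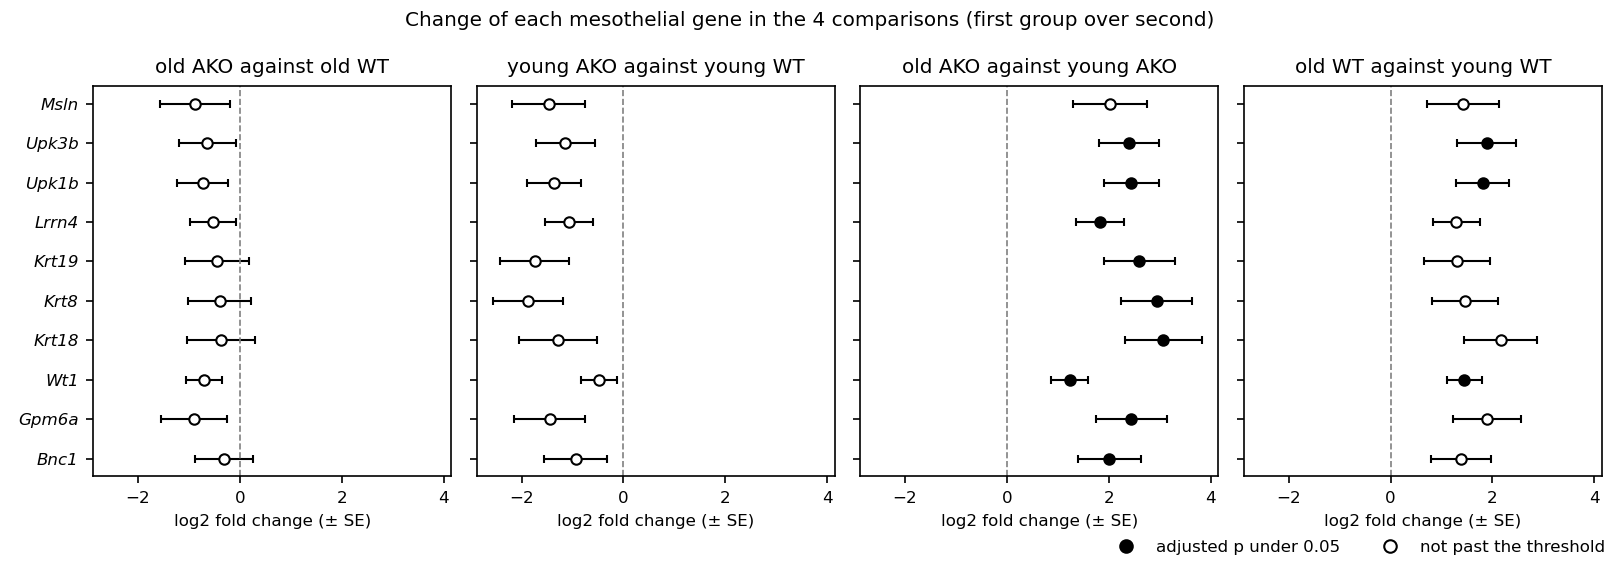
Log2 fold change (edgeR, ± SE derived from its F statistic) of each of the 10 genes in the 4 comparisons, each as first group over second. Filled circles mark an adjusted p under 0.05. No circle is filled in the 2 genotype panels, 9 are filled between old AKO and young AKO, and 3 between old WT and young WT.

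The genotype contrasts called none of the 10 genes. At 18 months the members' log2 fold changes between old AKO and old WT ran from -0.90 for Gpm6a to -0.32 for Bnc1, with a median of -0.59 against -0.01 over all genes. Adjusted p-values were 0.261 to 0.788 (edgeR quasi-likelihood test), and 0 of the 10 had an unadjusted p under 0.05, as 0 did by DESeq2 and by limma-voom after adjustment. In this contrast 5.95% of all genes tested were called. Upk3b illustrates the overlap, with 47.2, 40.6 and 21.4 CPM in old AKO and 37.9, 66.4 and 65.7 CPM in old WT. No member separated the 2 groups downward, against 20.3% of all genes.

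At 3 months all 10 log2 fold changes between young AKO and young WT were below 0, from -1.87 for Krt8 to -0.48 for Wt1, with a median of -1.32 against 0.01 over all genes. None passed at an adjusted p under 0.05 (range 0.165 to 0.501, edgeR), limma-voom called 0, 4 had an unadjusted p under 0.05, and 0.976% of all genes tested were called. Krt8, with 0.677, 0.120 and 0.478 CPM in young AKO and 2.49, 1.47 and 0.709 CPM in young WT, did not overlap between the groups, and DESeq2 called it (log2 fold change -1.89, adjusted p = 0.0482). Wt1 did not overlap either, at 1.99, 2.0 and 1.71 CPM in young AKO and 2.93, 2.15 and 2.89 CPM in young WT. For comparison, 11.0% of all genes were free of overlap and lower in young AKO.

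The size of the difference at 3 months depended on single libraries. Young WT replicate 1 had 84.5 CPM over the 10 genes, against 29.5 and 22.3 CPM in the other two young WT libraries. Its excess was 4.73-fold for Gpm6a and 4.63-fold for Msln over the mean of the other two, but 1.16-fold for Wt1. Young AKO replicate 2 had the lowest sum of all, 9.07 CPM, with 28.3 and 20.5 CPM in its group mates. Without young WT replicate 1 the median log2 fold change of the members between young AKO and young WT was -0.37. With young AKO replicate 2 left out as well, a choice made on the members' own levels, it was -0.13, and Msln, Upk3b, Gpm6a and Bnc1 turned positive (0.11, 0.10, 0.11 and 0.22). No member turned positive in the 12 fits that each left out 1 library. Over those fits Krt8 ran from -2.36 to -1.36 and Krt19 from -2.72 to -1.08, while Bnc1 ran from -1.36 to -0.14.

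The difference between the genotype effects at the 2 ages was tested as an interaction. None of the 10 genes passed (adjusted p 0.641 to 0.907, edgeR), 0 had an unadjusted p under 0.05, and 1 of the 15068 genes, or 0.00664%, was called. DESeq2 and limma-voom called 0 of the 10 as well. The members' interaction terms, 18 months minus 3 months, ran from -0.22 for Wt1 to 1.47 for Krt8 with a median of 0.61, and the median was -0.23 without young WT replicate 1. An age effect past the threshold in more genes of AKO than of WT is thus not shown to differ between the genotypes.

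The members varied together from library to library. Pearson r of log2 CPM over the 12 libraries was 0.94 to 0.99 for the 36 pairs that leave out Wt1. After each group's mean was subtracted, the same pairs had r between 0.78 (Lrrn4 and Krt18) and 1.00 (Msln and Upk3b). Wt1 stood apart, with r of 0.79 to 0.86 for its 9 pairs on levels and 0.33 to 0.53 on deviations. These correlations are descriptions over 12 libraries that share groups, depth and preparation, and carry no test. Wt1 also had the narrowest range, 5.79-fold between its lowest and highest library, where the other 9 genes spanned 7.93-fold (Lrrn4) to 111-fold (Krt18, from 2 reads at its lowest). Young AKO replicate 2 was the lowest library for 9 of the 10 genes, the exception being Wt1.

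**Figure D3:**
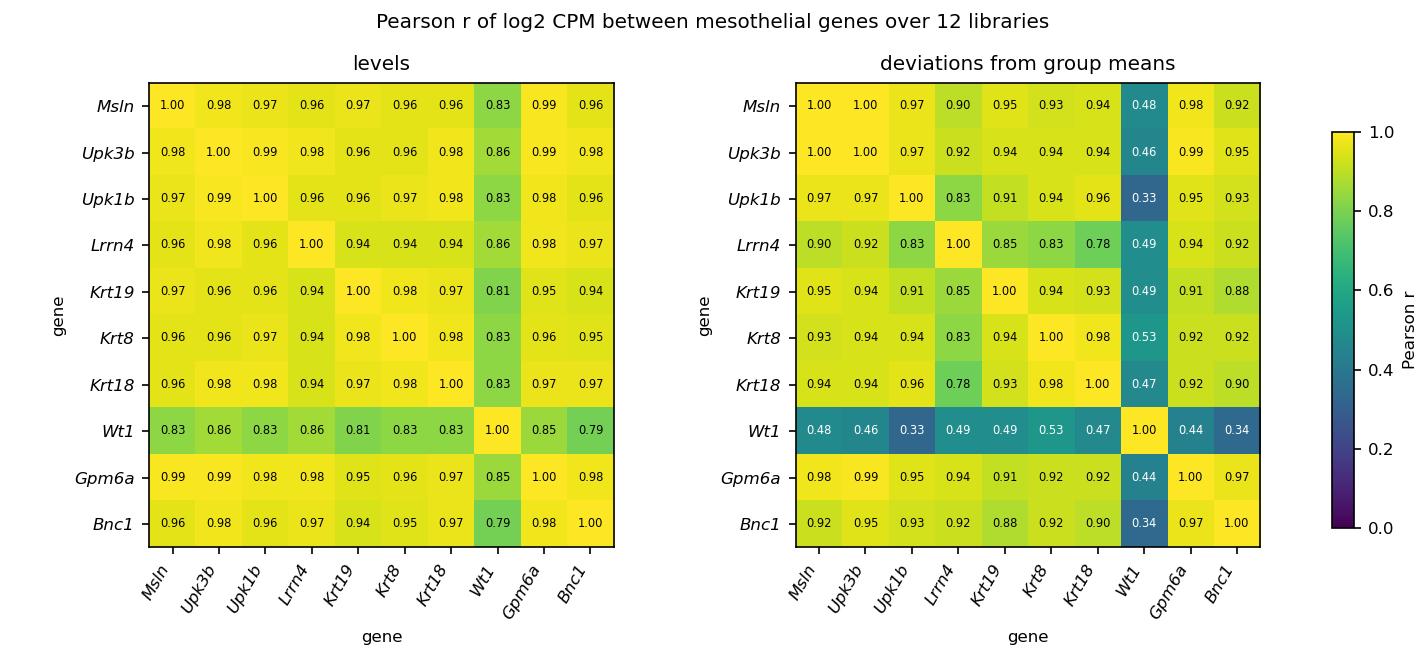
Pearson r of log2 CPM between the 10 genes over 12 libraries, on levels (left) and on deviations from group means (right), with the colour scale from 0 to 1. The row and column of Wt1 hold the lowest values in both panels, at 0.79 to 0.86 and at 0.33 to 0.53.

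Krt8 and Krt18 lie side by side on chromosome 15, with 23873 bases between them, and their proteins pair in one filament. Their FPKM ratio, looked at after the values were seen and not tested, was 0.972, 0.926 and 1.01 in old AKO and 0.951, 0.969 and 1.00 in old WT. In young AKO it was 1.07, 3.46 and 0.949, and in young WT 1.54, 1.79 and 1.47. The ratio of 3.46 rests on 6 reads of Krt8 and 2 of Krt18. All 3 young WT libraries thus had more Krt8 than Krt18 per length, and in the old AKO and old WT libraries the ratio lay between 0.926 and 1.01. A pseudogene of Krt8 and an overlapping antisense transcript are annotated, and the kit is not stated to keep the strand, so reads may be shared with them.

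**Figure D4:**
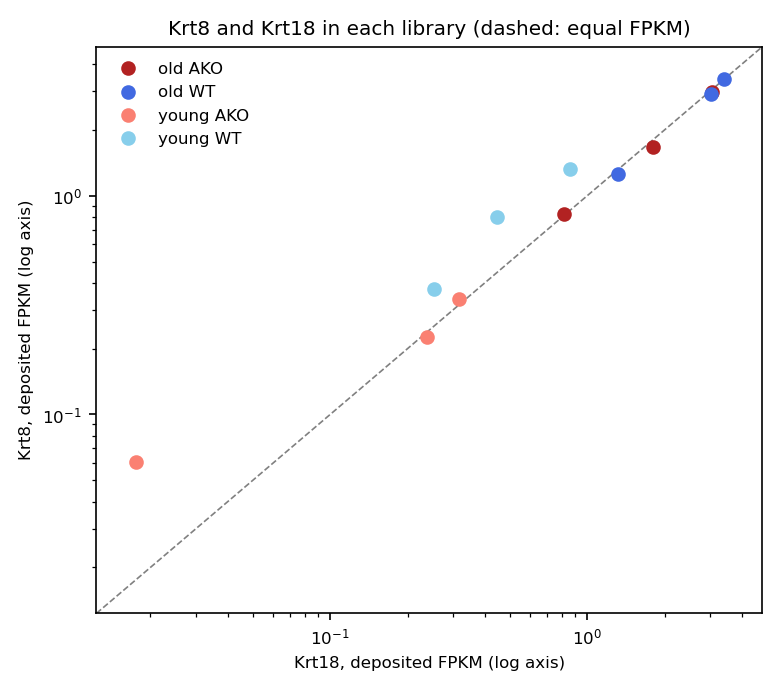
Deposited FPKM of Krt8 against that of Krt18 in each library, both on log axes, with a dashed line of equal FPKM. The old AKO and old WT libraries lie close to the line at 0.815 FPKM of Krt18 or more, and the 3 young WT libraries lie above it.

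Gpm6a has annotated transcripts from an upstream start at position 54779434 of chromosome 8 (mm10) and from a downstream start at 54954728, whose promoters are printed above. Of its 5136 reads over all libraries, 5028 were assigned to the upstream-start transcript. It took every read in 9 of the 12 libraries. Old WT replicate 1 had 633 of 711 reads on it and old WT replicate 2 had 1079 of 1081. Young AKO replicate 2 had 0 of 28 reads on it, with all 28 given to a downstream-start transcript. The assignment is an estimate made by the authors' software from overlapping exons, and the age and genotype results above use the sum.

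Outside the 10, the genes closest to them over the 12 libraries were found by the correlation of log2 CPM with the members' mean standardised level, among tested genes of at least 1 CPM on average. Gene models without a named symbol (Gm, Rik, LOC and clone names) were left out of the ranking. Rspo1, a secreted enhancer of WNT signalling, came first with r = 0.991 on levels and 0.986 on deviations from group means. Next on levels came Wnt2b, a WNT ligand (0.989), Nkain4 (0.989), the keratin Krt7 (0.988), the proteoglycan Spock2 (0.987), the galectin Lgals7 (0.986), Pkhd1l1 (0.985), Igfbp6, which binds insulin-like growth factors (0.983), the cytochrome Cyp2s1 (0.983) and the collagen-binding Fmod (0.982). On deviations Spock2 and Wnt2b (0.968 each), the actin nucleator Cobl (0.968), Ildr2 (0.965), Nkain4 (0.964), Tmem60 (0.964), Lgals7 (0.962), Igfbp6 (0.961) and the endocytic receptor Lrp2 (0.960) followed. The lists share 6 of their 10 genes. With the 2 libraries farthest from the median left out, r for Rspo1 was 0.984 on levels and 0.981 on deviations. All of these values are descriptions without a test.

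Wnt2b had 6.35, 5.86 and 4.31 CPM in old AKO and 6.55, 10.7 and 9.87 CPM in old WT, against 2.62, 1.02 and 2.20 CPM in young AKO and 5.32, 2.5 and 2.28 CPM in young WT. Every old AKO library was above every young AKO library, and every old WT library above every young WT library. Igfbp6 averaged 31.1 ± 11.7 CPM in old AKO and 55.8 ± 12.6 CPM in old WT, against 6.76 ± 2.01 CPM in young AKO and 15.2 ± 7.76 CPM in young WT (SD, n = 3 each). Both genes were chosen for following the members over all 12 libraries, age difference included, so these levels are a description with no test. Tmem60 shows that a close pattern need not mean a large change, since its group means were 14.2 ± 0.681 CPM in old AKO, 13.5 ± 0.684 CPM in old WT, 13.8 ± 1.04 CPM in young AKO and 13.3 ± 1.41 CPM in young WT (SD, n = 3 each).

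A second list of mesothelial genes, none of them a member, gave 16 tested genes. It too was chosen with earlier results of these data known. Between old AKO and young AKO 12 of the 16 rose and 1 fell, with a median log2 fold change of 1.68. Over all genes tested in that contrast 10.4% rose and 7.93% fell, with a median of -0.01. The immunoglobulin-domain gene Ildr2 rose by 2.52 (adjusted p = 0.00361), the tight-junction claudin Cldn15 by 1.33 (adjusted p = 0.00508), the plexin Plxna4 by 1.45 (adjusted p = 0.00663) and podoplanin, Pdpn, by 1.87 (adjusted p = 0.00763). Desmoplakin, Dsp, was among them with 22 reads in the old AKO libraries and 0 in the young AKO libraries. Between old WT and young WT 9 rose and 1 fell, with a median of 1.36, against 14.2% and 8.73% of all genes and a median of 0.03. The retinoic acid enzyme Aldh1a2 averaged 14.2 ± 7.46 CPM in old WT and 3.11 ± 1.55 CPM in young WT (SD, n = 3 each, log2 fold change 2.20, adjusted p = 0.00706). The gene that fell in both contrasts was the transcription factor Gata6, by 0.76 on the log2 scale between old AKO and young AKO (adjusted p = 0.0394) and by 1.28 between old WT and young WT (adjusted p = 0.00585).

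Single libraries moved these counts too. For old AKO against young AKO the list had 5 genes called without young AKO replicate 3, 6 without old AKO replicate 1, 7 without young AKO replicate 2 and 7 without old AKO replicate 2. Between old WT and young WT it had 3 called without young WT replicate 3 and 5 without young WT replicate 2, old WT replicate 2 or old WT replicate 3.

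In each genotype contrast 2 of the 16 genes of the second list fell and none rose. Over all genes tested, 5.16% fell at 18 months and 0.790% at 3 months, and whether the list differs from the 10 members was not tested. At 18 months, between old AKO and old WT, Aldh1a2 fell by 1.75 on the log2 scale (adjusted p = 0.0337) and Pdpn fell by 1.32 (adjusted p = 0.0418), and the list's median was -0.59. Between young AKO and young WT Cldn15, at 12.6 ± 1.54 CPM in young AKO and 27.4 ± 4.14 CPM in young WT (SD, n = 3 each), fell by 1.13 (adjusted p = 0.0431). Ildr2 fell by 1.80 (adjusted p = 0.0491), and the median was -1.18. Leaving out any one old AKO library, old WT replicate 3 or young AKO replicate 3 took the count at 18 months to 0. The count at 3 months was 0 without young AKO replicate 2 or 3, young WT replicate 1 or 2, old AKO replicate 2 or old WT replicate 1. The count at 18 months was also 0 with the replicate block and with the 2 groups fitted alone. At 3 months it was 0 by limma-voom, on log2(FPKM + 1) and with the 2 groups alone, 1 with the replicate block, with no filter on low counts and on log2(FPKM + 0.1), and 6 by DESeq2. The interaction called 0 of the 16 genes by edgeR, DESeq2 and limma-voom, and 2 had an unadjusted p under 0.05. Calb2, which encodes calretinin, had 0 reads in all 12 libraries, which allows up to 0.0466 to 0.0635 CPM per library when 3 reads are taken as the limit and counting error alone is covered.

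Among simple-epithelial keratin and junction partners, 5 of 9 tested genes rose between old AKO and young AKO, against 10.4% of all genes, with a median log2 fold change of 1.23. Between old WT and young WT 0 of the 9 passed (edgeR), against 14.2% of all genes that rose, 3 had an unadjusted p under 0.05 and the median was 0.66. The 5 genes included Cdh2 (log2 fold change 1.23, adjusted p = 0.0191), the N-cadherin of mesothelium, and the type II keratin Krt7 (2.51, adjusted p = 0.0302). Krt7 and Dsp, both among the 5, were already counted in the second mesothelial list. Retinoic acid and WNT genes of mesothelium gave 4 of 6 tested genes higher in old AKO than young AKO, led by the retinaldehyde dehydrogenase Aldh1a3 (2.34, adjusted p = 0.00372). In old WT against young WT 4 of the 6 rose and Rspo3 fell. Aldh1a2 and Rspo1 were among the 4 in each contrast and belong to the second mesothelial list as well, so the lists are not separate evidence. Of 10 genes tied to mesothelial-to-mesenchymal transition, fibronectin, Fn1, averaged 82.8 ± 10.5 CPM in old AKO and 269 ± 119 CPM in old WT and fell by 1.70 on the log2 scale (adjusted p = 0.0189). Tgfbr2, a receptor for TGF-beta, fell by 0.49 (adjusted p = 0.0438). Both genes rose between old AKO and young AKO and, with Tgfb1, between old WT and young WT. Over all genes tested, 10.4% and 14.2% rose in those age contrasts, 8.73% fell between old WT and young WT, and 5.16% fell between old AKO and old WT. These lists hold genes that fibroblasts and macrophages express as well.

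Markers of other cells that adipocyte preparations can hold also differed between the groups, not all in the direction of the mesothelial genes. Over all genes tested, the shares called were 10.4% higher and 7.93% lower in old AKO than young AKO, 14.2% and 8.73% in old WT than young WT, 5.16% lower in old AKO than old WT and 0.790% lower in young AKO than young WT. Over 12 progenitor and fibroblast markers, the summed level was 917 to 1114 CPM in old AKO and 1652 to 1893 CPM in old WT, and 1140 to 1359 CPM in young AKO and 1319 to 1614 CPM in young WT. The sum was thus lower in every old AKO library than in every young AKO library, opposite to the mesothelial sum. It was higher in every old WT library than in every young WT library. The fall in AKO followed Col3a1, the most abundant of the 12, at 335 ± 53.2 CPM in old AKO and 884 ± 66.7 CPM in young AKO (SD, n = 3 each). In that contrast 10 of the 12 genes had log2 fold changes above 0, the direction of the mesothelial genes, with a median of 1.51. By gene, of these 12, 7 rose and 1 fell between old AKO and young AKO, 10 rose and 1 fell between old WT and young WT, 5 fell between old AKO and old WT, and 3 fell between young AKO and young WT. Endothelial markers summed to 894 to 1408 CPM in old AKO, 1199 to 2166 CPM in old WT, 458 to 612 CPM in young AKO and 729 to 1382 CPM in young WT, and 8 of 10 rose between old AKO and young AKO and 3 of 10 between old WT and young WT. Macrophage markers were at 357 to 501 CPM in old AKO, 1056 to 4394 CPM in old WT, 176 to 237 CPM in young AKO and 289 to 420 CPM in young WT. All 10 rose between old WT and young WT, all 10 fell between old AKO and old WT, and 5 rose between old AKO and young AKO. Between young AKO and young WT the median log2 fold change was -1.16 over progenitor and fibroblast markers and -1.05 over endothelial markers. It was -0.91 over macrophage markers, -0.95 over smooth muscle and pericyte markers, 0.06 over adipocyte markers and 0.01 over all genes. Of the endothelial markers Sox17 fell past the threshold, and of the smooth muscle and pericyte markers Tagln did. The part these cells play in the mesothelial result was not tested.

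Smooth muscle and pericyte markers had 5 of 8 genes higher in old AKO than young AKO and 1 of 8 in old WT than young WT. T and B lymphocyte markers had 2 and 4 of 7 tested genes higher in those contrasts, and of 4 proliferation genes 3 rose between old WT and young WT and 3 fell between old AKO and old WT. The proliferation genes summed to 16.3, 11.9 and 57.8 CPM in old WT, highest in replicate 3. Their sums were 4.53 to 5.51 CPM in old AKO and 4.90 to 7.76 CPM in young WT. Of 10 adipocyte markers 5 fell between old WT and young WT, and Plin1, the lipid-droplet perilipin, rose between old AKO and old WT (0.55, adjusted p = 0.0407). Within young WT, replicate 1 had 3.26 times the mesothelial sum of its group mates and 2.45 times their sum over the second mesothelial list. Most of that second excess was a single gene, Efemp1, with 458 CPM in replicate 1 against 117 and 108 CPM in replicates 2 and 3. The progenitor and endothelial sums of replicate 1 were 0.883 and 0.595 times those of its group mates. Its testis germ cell (mostly Sycp3), nerve, mesothelial-to-mesenchymal transition and other epithelial sums were 1.64, 1.5, 1.43 and 1.43 times theirs. Its epididymis sum was 1.56 times theirs, but at 7.66 CPM it was below the 8.89 CPM of replicate 2, with 0.933 CPM in replicate 3.

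**Figure D5:**
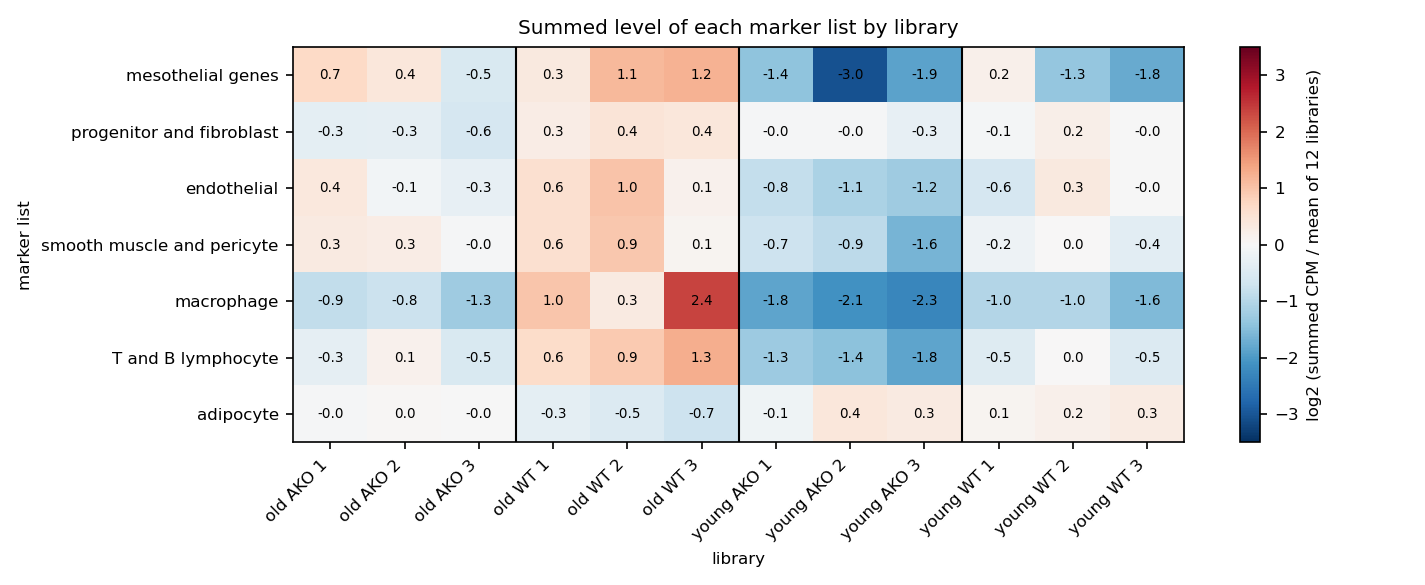
Summed CPM of 7 marker lists in each library, as log2 of the ratio to that list's mean over the 12 libraries, in columns from old AKO to young WT. The mesothelial row is highest in old WT replicates 2 and 3 and lowest in young AKO replicate 2, and young WT replicate 1 is above its group mates in that row.

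Keratins and uroplakins are also made by other epithelia. The epithelial adhesion gene Epcam had 0 reads in 8 of the 12 libraries and at most 0.151 CPM, and the E-cadherin gene Cdh1 had 0 in 7 and at most 0.317 CPM. All 10 epithelial markers together reached 0.839 to 2.34 CPM, and 2 of the 10 were tested. Cldn3, a claudin, rose in old AKO over young AKO and in old WT over young WT. Esrp1, an epithelial splicing factor, went the other way without passing, at 0.364 ± 0.235 CPM in old AKO and 0.693 ± 0.0508 CPM in young AKO, and at 0.138 ± 0.106 CPM in old WT and 0.427 ± 0.140 CPM in young WT (SD, n = 3 each). Urothelial markers summed to 0.151 to 0.783 CPM, with Upk2 and Krt13 at 0 reads in all 12 libraries. Markers of the neighbouring epididymis were at 0 to 0.0673 CPM in old AKO, 0 to 3.73 CPM in old WT, 0.0847 to 0.220 CPM in young AKO and 0.933 to 8.89 CPM in young WT. Most of that sum was Crisp1, a secreted protein of epididymal epithelium, which had 0 reads in all old AKO and young AKO libraries and was not called. Nerve markers summed to 3.17 to 8.13 CPM, and testis germ cell markers to 6.57 to 54.9 CPM in 11 libraries and 122 CPM in old AKO replicate 1. Sycp3, a meiotic chromosome protein, gave 47.0 CPM of that 122, with 11.3, 19.3, 18.8 and 22.2 CPM from the spermatid genes Tnp1, Tnp2, Prm1 and Prm2. In the other 11 libraries Sycp3 made up most of the sum, at 6.57 to 54.6 CPM, and those spermatid genes together reached at most 2.61 CPM. Between old AKO and young AKO Sycp3 and Ddx4 rose, and Sycp3 rose between old WT and young WT. The part of these traces in the keratin and uroplakin reads was not tested.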

How the data were processed

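Poly-A RNA of 12 libraries was made into TruSeq mRNA libraries and sequenced on a HiSeq4000, per the labels' protocols. The submitters' processing notes name HISAT2 2.1.0, HISAT, Bowtie2 and StringTie 1.3.4d and the build mm10, without their roles. The deposited table holds the authors' estimated counts (whole numbers) and FPKM for 36779 transcripts, and both were summed here per gene symbol to 24541 genes. No depth correction had been applied to the estimated counts the authors deposited, and totals were 45935795 to 61125366 per library.

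Genes were filtered with filterByExpr, leaving 15068, and tested with edgeR 4.0.16 (R 4.3.3), using TMM scaling, one mean per group and the quasi-likelihood F-test (two-sided). P-values were adjusted by Benjamini-Hochberg over all 15068 genes and called under 0.05. The SE given with a log2 fold change is its absolute value over the square root of the F statistic. It therefore holds no information beyond that test. The spread shared by all genes, as edgeR's common BCV, was 24.7%. Counts were simulated for the 15068 genes, with each fold change placed in 66 or 67 of them. Among those changed genes, the test recovered 97% of 4-fold and 59.7% of 2-fold changes between old AKO and young AKO. Between old WT and young WT it recovered 93.9% and 61.2%. Between young AKO and young WT it recovered 89.4% and 67.2%, and between old AKO and old WT 92.4% and 64.2%. Recovery was not measured for the mesothelial members by themselves, so these rates do not give the power for them. Msln, with a 4.04-fold change between old AKO and young AKO, was not called (adjusted p = 0.0762, edgeR quasi-likelihood test). Correlations used log2 CPM with a prior count of 2.

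The members and the gene lists were chosen with earlier results of these data known. The rule for named genes was all 10 members, Crtc2, up to 4 called genes per other list and comparison, up to 4 of the most abundant markers of other cells, and the 10 genes most like the members on each measure. Gata6 in AKO, Esrp1, the spermatid genes, the Tmem60, Igfbp6 and Wnt2b values and the Krt8 to Krt18 ratio were singled out after the values were seen, as were genes at 0 reads. Muc16, also on the second mesothelial list, had no entry under that symbol in the deposited table and so could not be tested.

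Alternatives were DESeq2 1.42.0 (test and size factors), limma 3.58.1 (voom, and log2 FPKM with a pseudocount of 1 or 0.1), other filters (at least 1 read in all, or 1 CPM in 6 libraries), fits of the compared groups alone, a replicate block and each library left out. Settings that leave out 2 libraries at once were added after the data were seen. Replicate numbers are shared between groups, but deviations of same-numbered libraries correlated at -0.214 to 0.0902, so they were not treated as pairs.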

Additional observations from a re-analysis of the deposited data

How the results depend on the processing

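Of 230 values of single members under alternatives per comparison, the direction turned for 4 between young AKO and young WT, all without young WT replicate 1 and young AKO replicate 2 (Msln 0.11, Upk3b 0.10, Gpm6a 0.11 and Bnc1 0.22 on the log2 scale, against lowest values with 1 library left out of -2.07, -1.53, -1.86 and -1.36), and for Krt18 between old AKO and old WT without old AKO replicate 3 (0.02, against -0.88 at the lowest). None turned in the age comparisons. Between old AKO and young AKO 49 lost the threshold and 5 gained it. The counts between old WT and young WT were 17 lost and 35 gained. The causes were not tested. Members called between old WT and young WT numbered 3, against 6 by DESeq2, 6 by limma-voom, 8 and 7 on log2 FPKM with a pseudocount of 1 and 0.1, and 1 with those groups alone. They numbered 6 without young WT replicate 1 and old WT replicate 3 and 10 without young WT replicate 1 and young AKO replicate 2, both settings added after the data were seen. Between old AKO and young AKO limma-voom called 4, not 9, and between young AKO and young WT DESeq2 called 1. Leaving out 1 library gave 0 to 10 members called between old AKO and young AKO, 0 to 8 between old WT and young WT, and 0 to 0 in the genotype and interaction tests. All genes called ranged then from 5 to 464 between young AKO and young WT (147 with all libraries), 4 to 1037 between old AKO and old WT (897), 1511 to 4436 between old WT and young WT (3451), 732 to 3771 between old AKO and young AKO (2766) and 1 to 4 for the interaction (1).

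All genes called between young AKO and young WT were 1365 by DESeq2, 9 by limma-voom, 232 with the stricter filter, 17 on log2(FPKM + 1), 4 with those groups alone, 856 without young WT replicate 1 and old WT replicate 3 and 492 without young WT replicate 1 and young AKO replicate 2. Between old AKO and old WT they were 1905 by DESeq2, 205 with those groups alone and 512 without young WT replicate 1 and old WT replicate 3, and between old WT and young WT 1058 with those groups alone and 4697 without young WT replicate 1 and young AKO replicate 2. Between old AKO and young AKO 4100 were called without young WT replicate 1 and old WT replicate 3. The interaction had 57 by DESeq2, 0 by limma-voom, 0 and 2 on log2 FPKM with a pseudocount of 1 and 0.1, and 2 and 12 without the first and the second pair of libraries. With the replicate block, 5 members were called between old WT and young WT and 7 between old AKO and young AKO, and all genes called were 54 between young AKO and young WT, 12 between old AKO and old WT and 0 for the interaction. Depth limits Krt18, Krt8 and Bnc1 most, with 2, 6 and 8 reads in young AKO replicate 2.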
